A study of Mus musculus with 12 samples.

Results

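Transcripts of genes that make, sense, move and export cholesterol were examined in aortic vessel tissue of mice given CM-695 or saline. The members were 30 genes listed by role and matched by exact symbol, of which 26 were measured among 22180 genes on the array. A gene was measured where a probe set named it alone, and for a gene with several such probe sets the brightest on average was used. Acat2, Soat1 and Nr1h2 had no probe set naming them alone or with another gene in the annotation used here, and Idi1 was named only by 1 probe set together with another gene, so these 4 have no value.

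The samples were 12 female mice of the outbred CD-1 stock, with 1 array per mouse. The CM-695 group of 6 mice received this inhibitor of histone deacetylase 6 and phosphodiesterase 9 intraperitoneally at 80 mg/kg, once 2 h and again 1 h before sacrifice. The vehicle group of 6 mice received saline, which the series design records as 1 injection, so the groups may also have differed in how often they were injected. All mice were perfused with buffered saline before the vessel was taken, and no source used here gives the age of the mice, the time of day or the order of collection. Values are the authors' RMA values on a log2 scale, so a difference of 1 is a doubling. The median value of an array was 4.69 to 4.74, and any pair of arrays correlated at 0.957 to 0.977.

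Cells make cholesterol from acetyl-CoA through mevalonate, the farnesyl and squalene intermediates, and a series of sterol modifications. When sterols in the endoplasmic reticulum run low, SCAP carries the transcription factor SREBP2 to the Golgi for cleavage, and the released fragment switches on nearly every enzyme of this route together with its own brake, INSIG1. When oxysterols accumulate, the nuclear receptors LXR alpha and LXR beta instead switch on the exporters ABCA1 and ABCG1 and the ubiquitin ligase MYLIP, which removes lipoprotein receptors from the cell surface. In the vessel wall these exporters hand cholesterol from macrophages and smooth muscle cells to lipoproteins.

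The proximal promoters of 5 members are shown here because the targets of SREBP2 are recognised by short elements close to the start site, and because these genes stand for the entry, middle and end of the route, its brake and an exporter. Letters run 5′ to 3′ on the gene's strand, from RefSeq on GRCm38.p6, and end before the transcription start. Capitals mark the core of a sterol regulatory element (CACNCCAC), an E-box (CACGTG, which SREBPs and clock factors can bind) and a CCAAT box (CCAAT, bound by NF-Y, a partner of SREBP2), searched on both strands; no matches overlapped in these windows. The windows are chr13:119690101-119690330 on the plus strand for Hmgcs1, chr8:122443425-122443502 on the minus strand for Mvd, chr7:143830109-143830189 on the plus strand for Dhcr7, chr5:28071176-28071411 on the plus strand for Insig1 and chr4:53160017-53160062 on the minus strand for Abca1.
Hmgcs1: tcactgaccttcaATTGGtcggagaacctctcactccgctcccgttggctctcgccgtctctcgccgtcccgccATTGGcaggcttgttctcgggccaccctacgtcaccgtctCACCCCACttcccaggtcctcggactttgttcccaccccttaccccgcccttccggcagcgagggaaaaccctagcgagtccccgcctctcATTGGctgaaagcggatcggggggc
Mvd: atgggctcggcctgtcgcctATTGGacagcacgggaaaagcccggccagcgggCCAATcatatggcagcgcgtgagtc
Dhcr7: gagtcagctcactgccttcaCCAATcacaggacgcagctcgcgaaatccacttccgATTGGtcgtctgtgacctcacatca
Insig1: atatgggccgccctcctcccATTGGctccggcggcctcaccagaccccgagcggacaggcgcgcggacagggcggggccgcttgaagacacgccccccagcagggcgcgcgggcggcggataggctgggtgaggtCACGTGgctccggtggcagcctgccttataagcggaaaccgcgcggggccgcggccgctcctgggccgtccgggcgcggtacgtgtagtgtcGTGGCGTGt
Abca1: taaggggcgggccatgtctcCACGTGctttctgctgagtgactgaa

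Hmgcs1 holds 1 sterol element core between its CCAAT boxes, Insig1 has 1 match of each of the 3 motifs, Mvd and Dhcr7 have 2 CCAAT boxes each, and Abca1 has a lone E-box. Dhcr7 has 3 annotated starts, and the window with the most matches is shown. Over the 250 bases before each annotated start, a CCAAT box was found in 14 of the 14 measured SREBP2 targets that the table held, against 37.5% of all 27025 genes in it. The sterol element core was found in 2 of 14 (Hmgcs1 and Insig1; 6.05% of all genes) and the E-box in 4 of 14 (Hsd17b7, Sc5d, Dhcr7 and Insig1; 6.86% of all genes). The E-box counted for Dhcr7 lies before another of its annotated starts, outside the window printed. The LXR element searched, a direct repeat of AGGTCA with 4 bases between (known as DR4), was found in 0 of the 2 LXR targets in the table and in 0.0148% of all genes. Only the exact repeat was counted, with no mismatch, and just 4 of the 27025 genes held it. A search this strict cannot show whether the 2 promoters lack an LXR element. These are matches of letters, not sites of binding.

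Across the pathway, most synthesis enzymes measured higher after CM-695 and the 3 LXR targets among the members lower, but no member passed the test over all probe sets. The adjusted p-values (limma with Benjamini-Hochberg adjustment over 41345 probe sets) ran from 0.140 for Dhcr7 to 0.967 for Insig2, against 0.155% of probe sets that passed at 0.05. At an unadjusted limma p under 0.05, 11 members were higher, 2 were lower and 13 were neither. Over all genes, 4.96% were higher and 4.14% lower by that rule. The median difference of the 26 members was 0.23 log2, beside 0.02 for all genes. The words higher and lower below describe the group means, and every adjusted p is over all probe sets, except in the fit to brighter probe sets only.

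**Figure D1:**
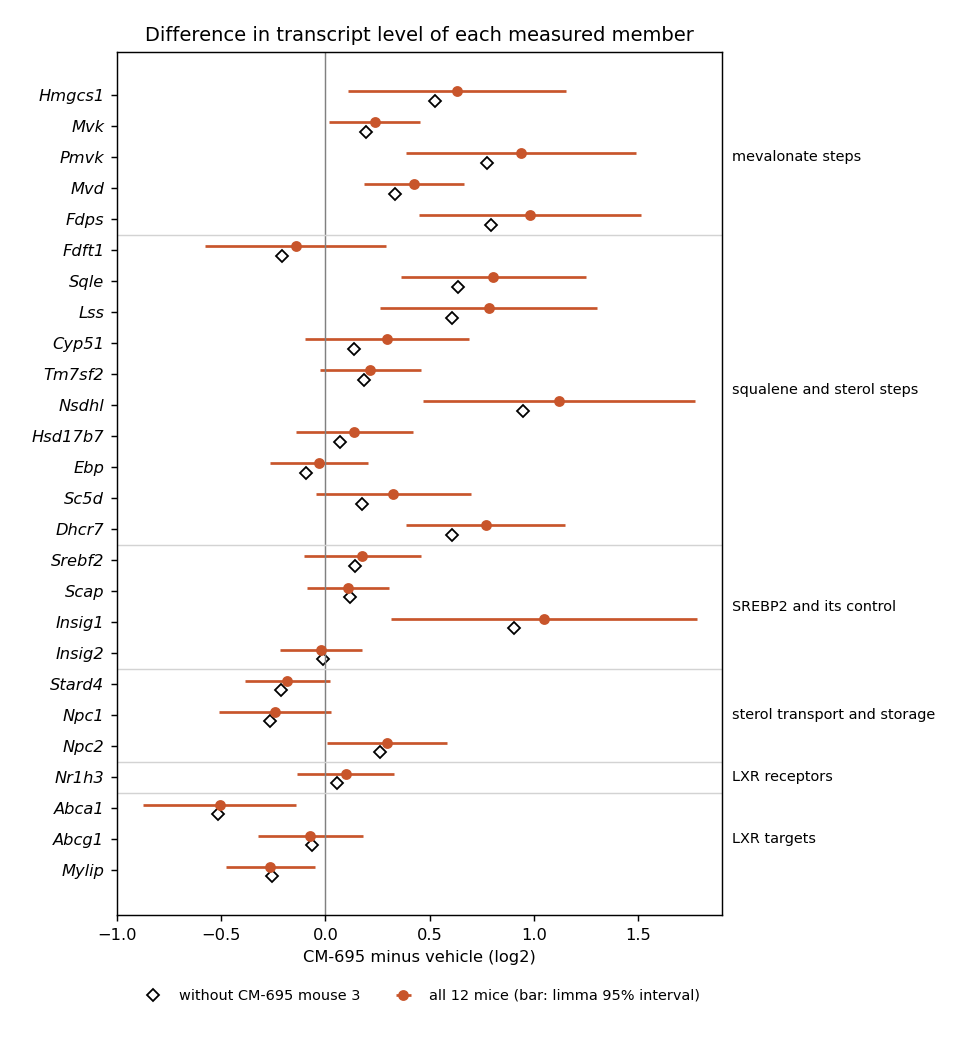
Difference between CM-695 and vehicle (log2, x axis) for each of the 26 measured members, in order of role; circles with bars are the limma estimate and its 95% interval over 12 mice, and open diamonds the estimate without CM-695 mouse 3. Synthesis enzymes and Insig1 lie mostly to the right of 0, up to 1.12 for Nsdhl, and the 3 LXR targets to the left, down to -0.51 for Abca1.

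The mevalonate steps were higher in all 5 measured members. Hmgcs1, which condenses acetoacetyl-CoA and acetyl-CoA at the entry of the route, had a lowest, median and highest value of 8.66, 9.01 and 9.22 in vehicle aortas and of 8.53, 9.68 and 10.21 after CM-695. In 5 treated mice it exceeded every vehicle mouse, while CM-695 mouse 2 lay below them all. The difference was 0.63 (SE 0.24, adjusted p = 0.450), or 1.55-fold. With the adipocyte marker mean as a covariate it was 0.36, with an unadjusted limma p of 0.0178 beside 0.0219 in the main fit. Without CM-695 mouse 1 or 3 the unadjusted limma p was 0.0541 or 0.0530.

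Mevalonate kinase, Mvk, and phosphomevalonate kinase, Pmvk, add the phosphates that prepare mevalonate for decarboxylation. Mvk ran through 6.03, 6.07 and 6.23 in vehicle and 6.07, 6.35 and 6.56 after CM-695, a difference of 0.24 (SE 0.10, adjusted p = 0.508). Pmvk ran through 6.62, 7.62 and 8.09 in vehicle and 8.05, 8.32 and 9.27 after CM-695. The difference was 0.94 (SE 0.26, adjusted p = 0.237), which is 1.92-fold. For Mvk, 4 treated mice exceeded the vehicle range, and leaving out any of 7 single mice moved its unadjusted limma p past 0.05, to 0.0839 at most. For Pmvk, 5 treated mice exceeded the vehicle range and the sixth, mouse 4, lay within it, close to the highest vehicle mouse.

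Mvd and Fdps were 2 of the 3 members in which every treated mouse lay above every vehicle mouse. Among all genes, 0.442% had that separation, and 0.636% had the reverse one, which 0 members had. Mvd, the decarboxylase that yields isopentenyl diphosphate and whose promoter with paired CCAAT boxes is printed above, ran through 5.71, 5.75 and 5.91 in vehicle and 5.98, 6.13 and 6.65 after CM-695. The difference was 0.43 (SE 0.11, adjusted p = 0.207), or 1.34-fold. Fdps, which joins isoprene units into farnesyl diphosphate, the branch point to prenylation, dolichol and ubiquinone, ran through 5.87, 6.70 and 7.15 in vehicle and 7.36, 7.47 and 8.59 after CM-695. Its difference was 0.98 (SE 0.25, adjusted p = 0.187), or 1.97-fold.

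The squalene and sterol steps were uneven. At an unadjusted limma p under 0.05, 4.96% of all genes were higher and 4.14% lower. Of 10 enzymes, 4 were higher by that rule and 6 were not past it, with differences from -0.14 to 1.12. The first step after the branch point was among the latter. Fdft1, squalene synthase, ran through 8.54, 9.20 and 9.63 in vehicle and 8.71, 8.84 and 9.50 after CM-695, with every treated mouse inside the vehicle range. The difference was -0.14 (95% interval -0.58 to 0.29, adjusted p = 0.869). Its sign changed in 1 of 23 alternatives, at 0.27 with the cardiac marker mean as a covariate, a fit added after the data were seen. Without vehicle mouse 5 the difference was -0.04.

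The next enzymes along the route differed more. Sqle, squalene epoxidase, a rate-limiting oxygenase, ran through 5.71, 5.99 and 6.06 in vehicle and 6.00, 6.79 and 7.61 after CM-695. Its level was 1.75-fold that of vehicle (0.81, SE 0.21, adjusted p = 0.196). Its vehicle mice lay within 0.36 log2 of each other, and 5 treated mice exceeded them, mouse 1 being the exception. Lss, the cyclase that forms lanosterol, ran through 5.65, 6.27 and 6.70 in vehicle and 6.56, 6.87 and 7.89 after CM-695. Its difference was 0.78 (SE 0.24, adjusted p = 0.315), or 1.72-fold, and 1.34 with the cardiac marker mean as a covariate.

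Among enzymes that turn lanosterol into cholesterol, Nsdhl and Dhcr7 stood out in size. Nsdhl, which takes part in removing the methyl groups at carbon 4, ran through 6.99, 7.69 and 8.67 in vehicle and 8.55, 8.80 and 9.81 after CM-695. Its difference of 1.12 (SE 0.30, adjusted p = 0.226), or 2.18-fold, was the largest of the 26 members, and 5 treated mice exceeded the vehicle range. Dhcr7, the last reductase of the route, ran through 6.32, 6.67 and 6.88 in vehicle and 7.07, 7.27 and 8.19 after CM-695, with no overlap. The difference was 0.77 (SE 0.18, 95% interval 0.39 to 1.15), or 1.70-fold, and its adjusted p of 0.140 was the smallest among members.

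The other 5 sterol enzymes did not reach an unadjusted limma p of 0.05. Sc5d, the desaturase before Dhcr7, differed by 0.33 (SE 0.17, adjusted p = 0.599), Cyp51, lanosterol demethylase, by 0.29 (SE 0.18, adjusted p = 0.660) and the sterol reductase gene Tm7sf2 by 0.22 (SE 0.11, adjusted p = 0.592). Hsd17b7, a ketosteroid reductase, differed by 0.14 (SE 0.13, adjusted p = 0.794) and the isomerase gene Ebp by -0.03 (SE 0.11, 95% interval -0.27 to 0.20). For Sc5d and Cyp51, CM-695 mouse 3 stood highest, at 8.69 and 6.93, and without it the differences were 0.18 and 0.14.

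**Figure D2:**
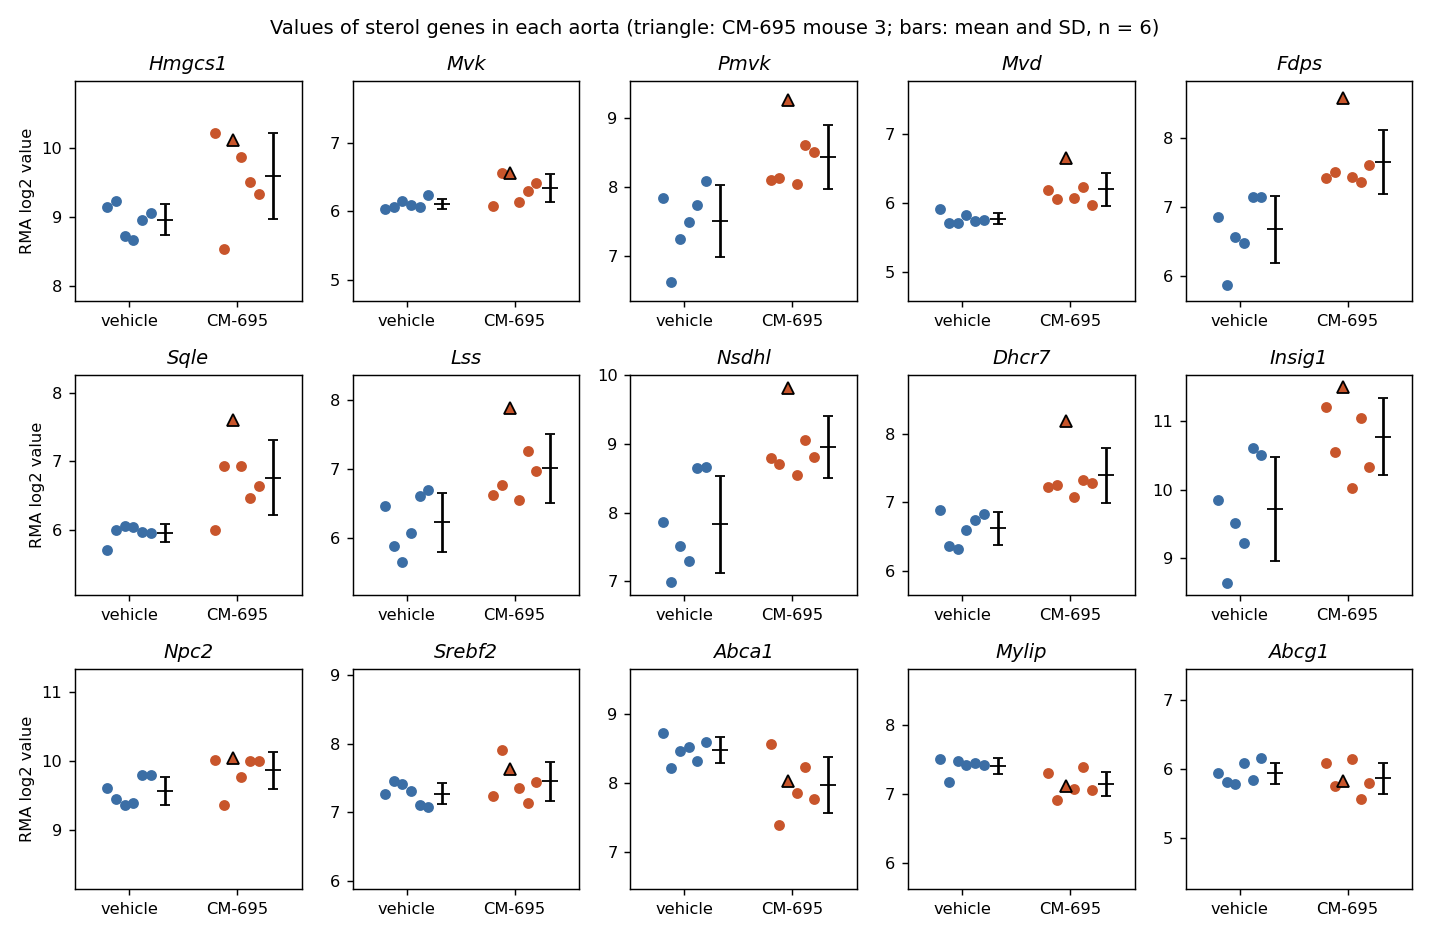
RMA log2 values (y axis, each panel spanning the same number of log2 units) of 15 members in each mouse, with points for mice, a triangle for CM-695 mouse 3, and bars for the mean and SD of 6 mice. Mvd, Fdps and Dhcr7 show no overlap between the groups, Pmvk and Nsdhl a narrow one, and Abca1 and Mylip have 4 treated mice each below the vehicle range.

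The regulators divided. Insig1, the sterol-sensing brake that retains SCAP in the endoplasmic reticulum and is itself a target of SREBP2, ran through 8.64, 9.69 and 10.60 in vehicle and 10.02, 10.79 and 11.49 after CM-695. The difference was 1.05 (SE 0.34, adjusted p = 0.347), or 2.07-fold, with 3 treated mice above the vehicle range and 3 within it. Its paralogue Insig2, which does the same task but is not driven by SREBP2, differed by -0.02 (95% interval -0.22 to 0.18, adjusted p = 0.967).

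Srebf2, which encodes SREBP2, ran through 7.08, 7.29 and 7.46 in vehicle and 7.14, 7.40 and 7.90 after CM-695, a difference of 0.18 (95% interval -0.10 to 0.46, adjusted p = 0.723). Only CM-695 mice 2 and 3 exceeded the vehicle range for Srebf2, and without mouse 2 the difference was 0.087. Scap differed by 0.11 (95% interval -0.09 to 0.30). SREBP2 is controlled by cleavage of its protein, which an array of transcripts does not measure.

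Transport and storage genes did not move as one group. Npc2, the lysosomal protein that hands cholesterol to NPC1, ran through 9.35, 9.53 and 9.80 in vehicle and 9.36, 9.99 and 10.04 after CM-695, a difference of 0.30 (SE 0.13, adjusted p = 0.531). It was 0.18 with the adipocyte marker mean as a covariate, and leaving out any of 9 single mice moved its unadjusted limma p past 0.05. Npc1, the membrane partner of Npc2, differed by -0.24 (SE 0.12, adjusted p = 0.585). That difference was -0.07 with the cardiac marker mean as a covariate, and -0.14 as the mean with a second probe set whose average of 3.73 lay below the median of every array. Stard4, a soluble sterol carrier and a target of SREBP2, differed by -0.18 (SE 0.095, adjusted p = 0.588), opposite in sign to most other targets, and by -0.02 with the cardiac marker mean as a covariate. In 4 treated mice Stard4 lay below the vehicle range. All its values, 4.83 to 5.26 over both groups, lay little above the array medians of 4.69 to 4.74.

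The 3 LXR targets among the members had differences below 0, that of Abcg1 close to 0. A list of 9 further LXR targets and oxysterol enzymes, given below, did not share this direction, with a median of 0.04. Abca1, which loads cholesterol onto apolipoprotein A-I, ran through 8.21, 8.50 and 8.73 in vehicle and 7.39, 7.93 and 8.56 after CM-695. The difference was -0.51 (SE 0.17, adjusted p = 0.364), a 1.42-fold lower level, with 4 treated mice below every vehicle mouse and CM-695 mouse 1 well inside the vehicle range. Mylip, the ligase that degrades lipoprotein receptors, ran through 7.17, 7.43 and 7.50 in vehicle and 6.92, 7.09 and 7.38 after CM-695. Its difference was -0.26 (SE 0.098, adjusted p = 0.437), again with 4 treated mice below the vehicle range.

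Abcg1, which exports cholesterol to high-density lipoprotein, ran through 5.78, 5.88 and 6.15 in vehicle and 5.56, 5.80 and 6.15 after CM-695. It differed by -0.07 (95% interval -0.32 to 0.18, adjusted p = 0.891), with 2 treated mice below the vehicle range and 4 within it. Nr1h3, which encodes LXR alpha, ran through 6.19, 6.42 and 6.49 in vehicle and 6.18, 6.47 and 6.74 after CM-695. It differed by 0.10 (95% interval -0.14 to 0.33, adjusted p = 0.827), with 3 treated mice above and 1 below the vehicle range.

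Set side by side, the 18 measured SREBP2 targets (the 15 enzymes with Insig1, Srebf2 and Stard4) had a median difference of 0.38 log2, and the 3 LXR targets of -0.26. Of the SREBP2 targets, 10 were higher and 0 lower at an unadjusted limma p under 0.05, with 15 differences above 0 and 3 below. Of the LXR targets, 0 were higher and 2 lower. Over all genes, 4.96% were higher and 4.14% lower by that rule. To compare mice, each value was taken relative to the vehicle mean of its gene and averaged over a list. The SREBP2 targets lay between -0.24 and 0.24 in vehicle mice and between 0.30 and 1.03 in treated mice, so the groups did not overlap. The lists were chosen with earlier results of these data known, and this separation was not tested against other lists of genes. The LXR targets lay between -0.21 and 0.12 in vehicle mice and between -0.58 and 0.05 in treated mice, 5 of which were below the vehicle range.

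**Figure D3:**
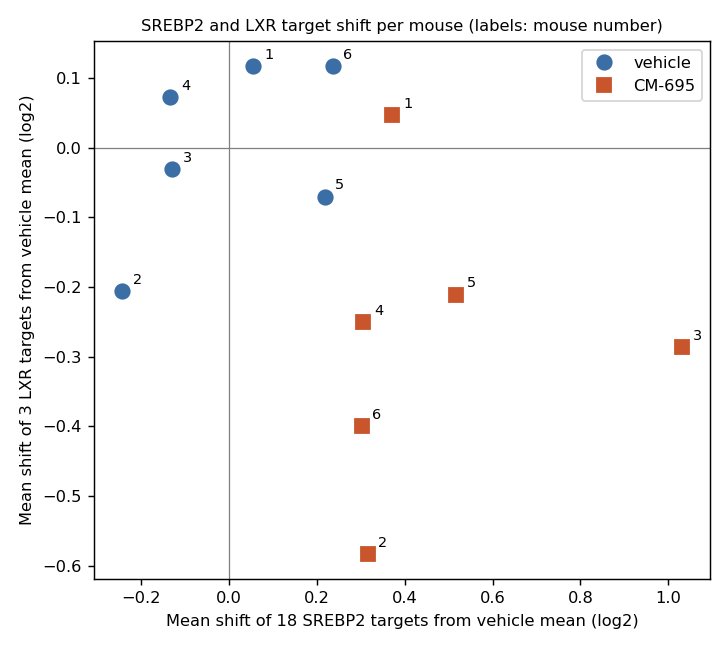
Mean shift of the 18 SREBP2 targets (x axis) against that of the 3 LXR targets (y axis), both in log2 units from the vehicle mean, with 1 point per mouse labelled by its number. Treated mice lie to the right of vehicle mice, and CM-695 mouse 3 is farthest right at 1.03 while its LXR shift of -0.29 is within the range of the other treated mice.

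The sizes on the 2 sides did not go together within the treated group. CM-695 mouse 3, with the largest SREBP2 shift of 1.03, had an LXR shift of -0.29. CM-695 mouse 2 had the lowest LXR shift, -0.58, beside an SREBP2 shift of 0.32, and CM-695 mouse 1 had an LXR shift of 0.05 beside 0.37. The shifts in CM-695 mice 4, 5 and 6 were 0.31, 0.52 and 0.30 for SREBP2 targets and -0.25, -0.21 and -0.40 for LXR targets.

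CM-695 mouse 3 was the highest treated mouse for 12 of the 18 SREBP2 targets and exceeded every vehicle mouse for 16 of them. The other treated mice exceeded every vehicle mouse for 7 to 13 targets. Without mouse 3 the median of the SREBP2 targets was 0.26 and that of the LXR targets -0.26, and 8 SREBP2 targets were higher and 1 lower at an unadjusted limma p under 0.05. Over all genes 3.9% were then higher and 3.56% lower. The 10 targets that were higher at that unadjusted p in the full set, mouse 3 included, kept between 77.6% and 86.2% of their difference. Among targets above 0 but not past it, Cyp51 went from 0.29 to 0.14, Sc5d from 0.33 to 0.18 and Hsd17b7 from 0.14 to 0.07. Tm7sf2 went from 0.22 to 0.18 and Srebf2 from 0.18 to 0.14. Hmgcs1 and Mvk no longer had an unadjusted limma p under 0.05, and neither did Npc2, while Stard4 did, at -0.22 (SE 0.099, adjusted p = 0.642).

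Without mouse 3, Dhcr7 differed by 0.61 (SE 0.12, adjusted p = 0.116), Fdps by 0.79 (SE 0.20, adjusted p = 0.261), Sqle by 0.64 (SE 0.16, adjusted p = 0.254) and Insig1 by 0.90 (SE 0.34, adjusted p = 0.548). The SE of Dhcr7, Fdps and Sqle was smaller without this mouse than with it, and that of Insig1 was not. Abca1 differed by -0.52 (SE 0.19, adjusted p = 0.513). Mvd, Fdps and Dhcr7 were again the members with all treated mice above all vehicle mice, against 0.568% of all genes, and 0 members lay wholly below, against 0.739%.

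Vehicle mice themselves differed widely for some targets. Pmvk, Fdps, Fdft1, Lss, Nsdhl and Insig1 spanned 1.05 to 1.96 log2 among the 6 vehicle mice, while the other 12 SREBP2 targets spanned 0.20 to 0.63. Vehicle mouse 2 was lowest for 4 of those 6 genes, and vehicle mouse 5 or 6 was highest for all 6. Among vehicle mice, mouse 2 also had the lowest brown adipocyte marker mean, 10.97. Mice 5 and 6 had the highest, 11.78 and 11.70. The smooth muscle marker mean was lowest in mice 5 and 6, at 10.02 and 10.08, and was 10.96 in mouse 2. No fit used the brown adipocyte mean as a covariate, and the part of tissue make-up in this spread was not tested. The SREBP2 targets with the tightest vehicle values included Mvk, Mvd and Stard4, each spanning 0.20 or 0.21.

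**Figure D4:**
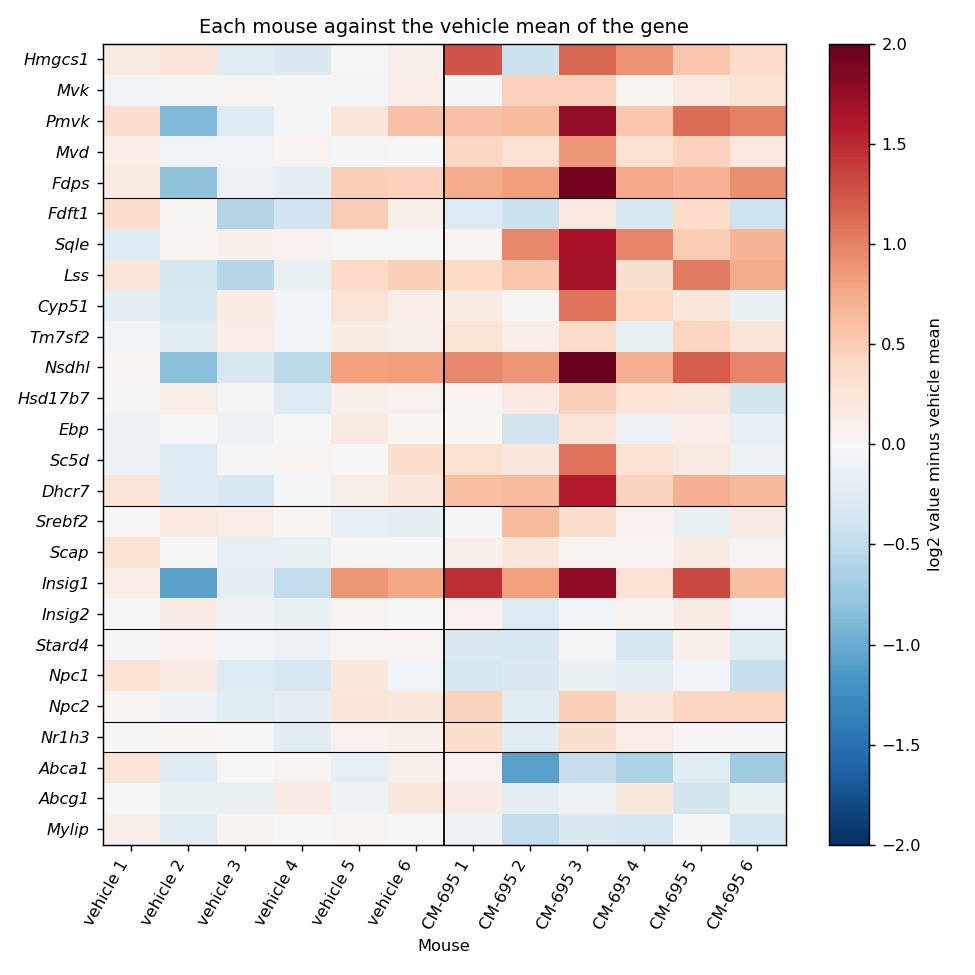
Value of each member (rows, grouped by role) in each mouse (columns) minus the vehicle mean of that gene, in log2 units from -2 (blue) to 2 (red). The column of CM-695 mouse 3 is red for most enzymes, Pmvk, Fdps, Nsdhl and Insig1 also vary among vehicle mice, and Abca1 is blue in 5 treated mice.

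Further genes of the pathway were read from lists set beside the members. Among all genes, 4.96% were higher and 4.14% lower at an unadjusted limma p under 0.05. Of 12 measured genes of SREBP processing and further sterol steps, 0 had an unadjusted limma p under 0.05 in either direction, and the median was -0.04. The smallest p-values belonged to Gramd1c (-0.27, SE 0.13, adjusted p = 0.564) and Gramd1a (-0.16, SE 0.10, adjusted p = 0.671), which encode carriers of cholesterol from the plasma membrane, then to the sterol carrier gene Stard3 (-0.13, SE 0.092) and the protease gene Mbtps2 (-0.12, SE 0.091), whose product cleaves SREBPs. Of 7 uptake and lysosomal genes, 1 was lower at that threshold, the lipoprotein receptor gene Lrp1 (-0.32, SE 0.15, adjusted p = 0.538). Without CM-695 mouse 3, 0 of these 7 were past that threshold, and their lowest difference was -0.24. Vldlr differed by 0.25 (SE 0.12), Lamp2 by -0.20 (SE 0.11) and Scarb1 by -0.25 (SE 0.16).

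A list of 9 further LXR targets and oxysterol enzymes had a median of 0.04, with 5 differences above 0 and 4 below, beside -0.26 for the exporters and ligase above. Without CM-695 mouse 3 that median was -0.0072, with 4 above 0 and 5 below. The 1 past an unadjusted limma p of 0.05 was Scd1, the fatty acid desaturase gene that both LXR and SREBP1 can drive, which was higher by 0.53 (SE 0.21, adjusted p = 0.463). The phospholipid remodelling gene Lpcat3 differed by 0.25 (SE 0.15), Smpdl3a by -0.10 (SE 0.10) and Abcg8 by 0.11 (SE 0.12). The difference between these lists was not tested.

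The tissue was a mixture, and markers of some of its cell types differed between the groups as well. Smooth muscle markers were present in every mouse (mean of 6 genes 10.0 to 11.1 in vehicle, 9.46 to 11.6 after CM-695), as were brown adipocyte markers (mean of 4 genes 10.97 to 11.8 and 10.8 to 11.98). CM-695 mouse 3 was the lowest of all mice for smooth muscle, at 9.46, and the highest for brown adipocyte markers, at 11.98. General adipocyte markers (6 genes) averaged 9.49 to 9.93 in vehicle and 9.24 to 10.15 after CM-695, with mouse 2 lowest. Cardiac markers (7 genes) averaged 7.79 to 10.1 and 6.13 to 9.03, and hepatocyte markers (7 genes) 4.27 to 4.77 and 4.31 to 6.73, with CM-695 mouse 5 highest. Fibroblast markers (6 genes) averaged 9.12 to 9.96 and 8.84 to 9.35. At an unadjusted limma p under 0.05, 6 of 7 cardiac and 2 of 6 fibroblast markers were lower, 1 of 6 adipocyte and 1 of 7 hepatocyte markers were higher, and 0 of 6 smooth muscle and 0 of 4 brown adipocyte markers were either. By the same rule 1 of 6 endothelial and 1 of 6 macrophage markers were lower and 1 of 4 lymphocyte markers was higher. Among all genes, 4.96% were higher and 4.14% lower by that rule, or 3.9% and 3.56% without CM-695 mouse 3. None of these markers passed the adjusted threshold, with or without that mouse. Without CM-695 mouse 3, the counts were 7 cardiac, 1 fibroblast, 1 endothelial and 1 macrophage marker lower, 2 hepatocyte markers higher, and 0 adipocyte and 0 lymphocyte markers either way. Hepatocyte means in vehicle lay near the array medians of 4.69 to 4.74. The values carried no detection calls, so such means do not show whether the cells were present.

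With the smooth muscle or the adipocyte marker mean as a covariate, the median of the SREBP2 targets was 0.33 or 0.32 and that of the LXR targets -0.30 or -0.31. With the cardiac or the hepatocyte marker mean, both added after the data were seen, the medians were 0.50 or 0.42 and -0.31 or -0.32. The cardiac mean was 9.22 in vehicle and 7.63 after CM-695, so a fit with it cannot fully separate it from treatment. Endothelial markers (6 genes) averaged 8.01 to 8.44 in vehicle and 7.997 to 8.43 after CM-695. Macrophage markers (6 genes), of the cells in which ABCA1 export is best known, averaged 6.32 to 7.05 and 6.30 to 7.09, and lymphocyte markers (4 genes) 4.50 to 5.06 and 4.78 to 5.39. In such bulk tissue, fewer cells of a type and less RNA per cell cannot be told apart. Beyond the covariate fits, the part of these cell types in the results was not tested.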

How the data were processed

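Values were the log2 expression values that the authors made with RMA, per the submitters' processing notes, from 1 array for each of 12 mice, as deposited; its version is not given in the sources used here. RMA corrects background, normalizes across arrays and summarizes probes. No detection calls came with the table, so weak and absent expression look alike at low values, and the number of arrays limits the precision. The platform annotation gave 1 symbol for 23521 of 41345 probe sets, several for 1814 and none for 16010.

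CM-695 minus vehicle was fitted with limma 3.58.1 (R 4.3.3) as a two-group model with eBayes moderation, two-sided, over all probe sets, with Benjamini-Hochberg adjustment and a threshold of 0.05. Each array came from a separate mouse. All members may be named, with up to 4 genes of smallest p from each other list. The lowest, median and highest values in each group were given for members with an unadjusted p under 0.05. They were also given for Srebf2, Insig1, the LXR receptor and the LXR targets. Fdft1 was added after its values were seen. Members and lists were chosen with earlier results of these data known. Mice of the same number did not pair (correlations of their deviations -0.10 to 0.10). Alternatives were 12 fits without 1 mouse, the replicate block, probe sets above the median brightness only, repeated quantile normalization, median centring, array weights, eBayes with trend and robust, marker means as covariates, and the mean of a gene's probe sets. Cardiac and hepatocyte covariates were added after seeing the data.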

Additional observations from a re-analysis of the deposited data

Results flagged for a closer look

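Within groups of 6 mice, 6 of 56 sets of values had 1 mouse set apart from the rest by a gap above 0.625 of the whole range, a limit that chance passes in about 1 of 20 groups. In CM-695 mouse 3, Fdps measured 8.59 (the other treated mice 7.36 to 7.60), Dhcr7 8.19 (7.07 to 7.33) and Sc5d 8.69 (7.49 to 7.91). The mean shift of the SREBP2 targets in that mouse was 1.03, with 0.30 to 0.52 in the others. These values share 1 mouse and overlapping genes, so they are not separate observations. Sqle measured 5.71 in vehicle mouse 1 (5.96 to 6.06 in the others), and Mylip 7.17 in vehicle mouse 2 (7.41 to 7.50).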

How the results depend on the processing

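No member passed the adjusted threshold under any of the 23 alternatives, 21 fixed at the start and 2 chosen after seeing the data. The smallest adjusted limma p was 0.0706, for Dhcr7 with probe sets above the median brightness only. That fit adjusts over fewer probe sets than the others. SREBP2 targets that were higher at an unadjusted limma p under 0.05 numbered 8 to 11, and LXR targets that were lower 2 in each. SREBP2 targets that were lower numbered 1 without CM-695 mouse 3 or 5 and with the adipocyte, smooth muscle or hepatocyte covariate, and 0 otherwise. The median difference ran from 0.26 to 0.44 for SREBP2 targets and from -0.31 to -0.22 for LXR targets with 1 mouse left out, and from 0.32 to 0.50 and -0.32 to -0.23 under the others. With the replicate number as a block, 0 members passed and 15 probe sets did, against 64; the medians were 0.38 and -0.26, and 1 of 6 mice correlated best with its own number, so the block is no evidence of pairing. Of 598 refitted member differences, 590 kept their direction. No fit put a member past the adjusted threshold, so only the sign was compared. A kept sign allowed large changes in size. With the cardiac covariate, Stard4 was at -0.02 against -0.18 and Npc1 at -0.07 against -0.24. The 8 that changed sign were for 3 genes: Fdft1, 0.27 with the cardiac covariate against -0.14; Ebp, 0.11 with the cardiac covariate and 0.0033 and 0.034 without vehicle mouse 5 or CM-695 mouse 2, in a range of -0.091 to 0.034 with 1 mouse left out; and Insig2, 0.011 with the cardiac covariate, 0.0024 with array weights, and 0.0092 and 0.029 without vehicle mouse 2 or CM-695 mouse 2, in a range of -0.056 to 0.029. The cause was not tested. Dim probe sets are limited by background, and 6 mice per group limit every value.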
